A study of Mus musculus with 15 samples.

Results

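The mitochondrial ribosomal protein genes are the 76 nuclear genes of the mouse cortex RNA-seq table whose symbols begin with Mrpl or Mrps and a number, out of 23235 genes in all. By symbol, 47 belong to the large (Mrpl) and 29 to the small (Mrps) subunit of the mitochondrial ribosome. WT mice were C57BL/6J, and Snord116del (+/-) mice were B6(Cg)-Snord116tm1.1Uta/J, which carry a deletion of the Snord116 cluster in the Prader-Willi region inherited from the father. All were adult males, bred as littermates by crossing carrier fathers with WT mothers, and whole dissected cortex was sequenced at Zt +6 (6 hours after lights on, in the light) or Zt +16 (in the dark). The labels list 3 WT and 2 Snord116del mice at Zt +6 and 2 of each genotype at Zt +16, but those of 1 WT and both Snord116del mice at Zt +6 name an earlier version of the table, so how many mice stand behind the Zt +6 values is uncertain. The table holds 1 value per gene and group, in FPKM (fragments scaled to transcript length and to the number of mapped fragments), so the spread between mice is not known and no test was possible. ChIRP-seq, which pulls down chromatin bound to an RNA with complementary oligos, was analysed from adult brain for 116HG, the long noncoding RNA of the Snord116 locus, in 2 WT libraries and 1 Snord116del library, each list of peaks set beside libraries made with NSC control oligos.

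The mitochondrial ribosome translates the few proteins that the mitochondrial genome still encodes, all of them core subunits of the respiratory chain and the ATP synthase. Its RNAs are made inside the organelle, but every one of its proteins is encoded in the nucleus, made in the cytosol and imported. Many of its proteins have a bacterial counterpart and carry its number, and the higher numbers were given to proteins found in mitochondria only. Some names mislead: Mrps18a and Mrps30 sit in the large subunit, and Mrps36 is now regarded as a part of the 2-oxoglutarate dehydrogenase complex. The brain uses much of its ATP for ion transport, and mutations in several of these genes cause encephalopathy in people.

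The deletion could not be checked on its target, since Snord116 was listed at 0 in all groups. The level of Ipw, another noncoding RNA from this region, was 21.6 FPKM (WT) and 3.40 FPKM (Snord116del) at Zt +6 and 3.17 and 1.82 FPKM at Zt +16. Summed FPKM over all genes was 159300 and 160199 in the WT and Snord116del groups at Zt +6 and 216422 and 342188 at Zt +16, so the groups are not on 1 scale. The neuronal markers ranged in every group from Gad2 (5.36 to 15.3 FPKM) to Snap25 (417 to 590 FPKM). The liver markers Alb and Apoa2 were at no more than 1.78 FPKM. The choroid plexus marker Ttr was at 200 and 182 FPKM at Zt +6 and at 24.9 and 29.6 FPKM at Zt +16 in WT and Snord116del.

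The mitochondrial ribosomal protein genes were expressed over a wide range. Together they made up 0.715% (WT) and 0.414% (Snord116del) of summed FPKM at Zt +6, against 0.775% and 0.783% at Zt +16. Their sum was 1139 and 663 FPKM at Zt +6 and 1678 and 2680 FPKM at Zt +16 in WT and Snord116del. By this sum the Snord116del group at Zt +6 was the low one and the Snord116del group at Zt +16 the high one. Of the 76 members 51 had their lowest value in the former and 71 their highest value in the latter. No such count was made over all genes. Summed FPKM over all genes was also highest in Snord116del at Zt +16 (342188), where the members' share was close to that in WT. The cytosolic ribosomal protein genes took 11.9%, 7.40%, 14.0% and 15.8% of summed FPKM in the 4 groups, WT before Snord116del and Zt +6 before Zt +16.

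**Figure D1:**
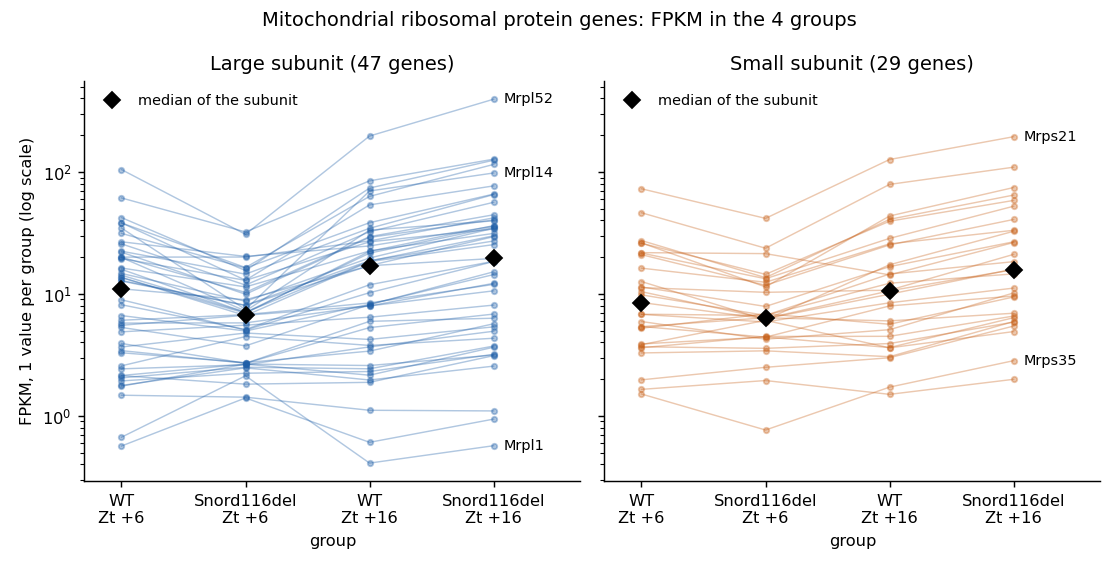
FPKM (vertical axis, log scale) of each mitochondrial ribosomal protein gene in the 4 groups, with 1 line per gene and a diamond at the median of the subunit; lines only join the values of a gene. The median of the 47 large subunit genes was 11.0, 6.77, 17.0 and 19.5 FPKM, and that of the 29 small subunit genes 8.50, 6.37, 10.6 and 15.8 FPKM, from left to right.

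Mrpl52, a mitochondria-specific protein of the large subunit, was the member with the highest mean level. Its level was 105 FPKM in WT against 30.8 FPKM in Snord116del at Zt +6, and 197 against 394 FPKM at Zt +16. Mrps21, the counterpart of bacterial S21, headed the small subunit with 72.7, 41.6, 126 and 194 FPKM in the same order. Both were lowest in Snord116del at Zt +6 and highest in Snord116del at Zt +16. The large subunit genes next below Mrpl52 were Mrpl30, Mrpl12, Mrpl54 and Mrpl14, with means over the groups of 76.3, 64.1, 58.2 and 52.5 FPKM. In the small subunit Mrps21 was followed by Mrps26, Mrps16, Mrps18c and Mrps24, with means of 64.6, 38.9, 36.6 and 34.6 FPKM. The lowest members were Mrpl17 and Mrpl1, which ranged from 0.566 to 1.40 and from 0.410 to 2.13 FPKM and stood under the mean of 1 FPKM required for comparisons. Mrpl2, Mrpl19 and Mrpl22 had means of 1.28, 2.20 and 2.24 FPKM, and the lowest small subunit genes, Mrps35, Mrps22, Mrps14, Mrps27 and Mrps31, had means between 1.71 and 4.27 FPKM. Transcript levels of genes whose proteins occur in the same particle thus spanned 2 orders of magnitude in FPKM. The order was much alike in every group, with a Spearman's rho over the 76 members of 0.93 to 0.99 between groups, but of 75 neighbouring pairs only 9 kept the same order in all 4 groups, so most neighbours cannot be ranked.

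Mrps18a, Mrps18b and Mrps18c descend from the same ancestral protein, the bacterial S18. Mrps18c was at 27.4 (WT) and 13.6 FPKM (Snord116del) at Zt +6 and at 40.9 and 64.6 FPKM at Zt +16. Mrps18b was at 8.50 and 6.25 FPKM at Zt +6 and at 9.95 and 16.0 FPKM at Zt +16. Mrps18a was at 21.8 and 21.4 FPKM at Zt +6 and at 14.3 and 26.4 FPKM at Zt +16. Mrps18a was the exception to the pattern of its relatives: its level was almost the same in both genotypes at Zt +6, and it was the member with the lowest difference between times in WT (log2 fold change of FPKM + 1 of -0.57).

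The first comparison asked how Snord116del differed from WT in the light. A gene was called higher or lower when FPKM + 1 differed 1.5-fold or more and the higher group reached 1 FPKM, among the 10297 genes averaging 1 FPKM or more, and fold changes are given as log2 of FPKM + 1. At Zt +6, 29 of the 74 members compared were lower in Snord116del, where 7.62% of all genes compared were lower, and 1 member, Mrpl50, was higher, where 49.3% of all genes were. The members' median log2 fold change was -0.41 beside 0.57 over all genes compared. Of the members 53 of 74 were below 0, beside 2298 of all 10297 genes. In the large subunit 20 of 45 were lower, with a median of -0.48, and in the small subunit 9 of 29, with a median of -0.36. With the groups set to the same median over all genes, or with their distributions made equal, the members' median was -1.09 or -1.08 and 54 were lower and 0 higher, beside 24.2% lower and 14.8% higher or 20.6% lower and 22.2% higher of all genes.

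Mrpl14, the counterpart of bacterial L14 at the face where the subunits meet, was at 34.7 FPKM in WT and 7.44 FPKM in Snord116del at Zt +6, and its log2 fold change of -2.08 was the lowest among the members. Mrpl52 followed with -1.73. Mrpl23, which lines the exit of the peptide tunnel, was at 38.3 and 13.0 FPKM (log2 fold change -1.49). All 3 were above the members' median of 9.39 FPKM in WT. Mrpl12, which forms the stalk that recruits translation factors and also binds the mitochondrial RNA polymerase, was at 42.3 and 15.5 FPKM, with a log2 fold change of -1.39. Mrpl27, close to the peptidyl transferase centre, was at 19.9 and 7.24 FPKM, with -1.34. Mrpl54, Mrpl13, Mrpl36 and Mrpl4 were also lower, by -1.17, -1.07, -1.07 and -1.06.

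Among the small subunit genes Mrps16, a counterpart of bacterial S16, had the lowest log2 fold change at Zt +6, -1.13, with 26.2 FPKM in WT and 11.4 FPKM in Snord116del. Mrps18c followed with -0.96, Mrps26 with -0.94, Mrps34 with -0.93 and Mrps24 with -0.80. Mrps26 was at 46.3 and 23.7 FPKM and Mrps34 at 12.6 and 6.15 FPKM. All 5 were called lower. Mrps12, which corresponds to bacterial S12 at the decoding centre, was at 5.94 and 4.26 FPKM and was not called (log2 fold change -0.40). Mrps18b (-0.39) and Mrps18a (-0.03) were not called either, whereas Mrps36 was called lower, at 21.6 and 13.3 FPKM (-0.66).

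Mrpl50, a mitochondria-specific large subunit protein, was at 2.57 FPKM in WT and 4.47 FPKM in Snord116del at Zt +6. Its log2 fold change of 0.62 became -0.02 with the groups set to the same median and -0.07 with equal distributions. The large subunit genes with the next highest values, Mrpl11, Mrpl19, Mrpl10 and Mrpl38, were at 0.41, 0.32, 0.31 and 0.23 and were not called. The highest small subunit values were those of Mrps25 (0.55), Mrps23 (0.33), Mrps17 (0.25), Mrps14 (0.23) and Mrps2 (0.21), none of them called. All of these genes had a mean under 8 FPKM.

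The genes that were lower were thus the more highly expressed ones. Of the 25 members with the highest mean FPKM (20.4 to 182), 19 were lower in Snord116del at Zt +6, beside 28.8% of all genes in this range, with a median of -0.91. Of the 25 in the middle (6.79 to 19.9 FPKM), 10 were lower, beside 7.88%, with a median of -0.48. Of the 24 lowest (1.28 to 6.37 FPKM), 0 were lower, beside 1.91%, with a median of 0.15. The medians of all genes in the same ranges of mean FPKM were -0.15, 0.45 and 0.72, so the members lay below the other genes of their own level in each range. Across the members Spearman's rho between mean FPKM and log2 fold change was -0.81, beside -0.29 across all genes, where both measures share the FPKM values and genes are not independent replicates.

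Members also had short transcripts. The median length of the longest annotated transcript was 1300.5 bases for the members and 3087 bases for all genes compared, and across all genes the log2 fold change at Zt +6 had a Spearman's rho of 0.63 with transcript length. For the members rho was 0.49. Of the 23 members under 1 kb, 15 (65.2%) were lower, beside 43.8% of all genes of this length, with medians of -0.79 and -0.46. Between 1 and 2 kb, 10 of 29 (34.5%) were lower, beside 15.4%, with medians of -0.39 and 0.04. At 2 kb or more 4 of 22 (18.2%) were lower, beside 1.84%, with medians of 0.00 and 0.77. With the dependence on transcript length taken out over all genes, 28 members were lower and 1 was higher, with a median of -0.44 beside 0.01, and all genes were 13.5% lower and 12.6% higher. With trends on length and mean FPKM removed together, an alternative chosen after seeing the data, 24 were lower and 0 higher, with a median of -0.44. Under this setting 12.2% of all genes were lower and 12.2% higher, with a median of 0.003. Mrpl13 and Mrps26 stood out from the trend by annotated length, since their longest transcripts have 6008 and 4278 bases and both were called lower. The longest annotated transcript of Mrpl13 has 2 exons only. Which transcripts are expressed was not examined, so annotated lengths, here and in the classes, may not be those of the measured RNA.

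**Figure D2:**
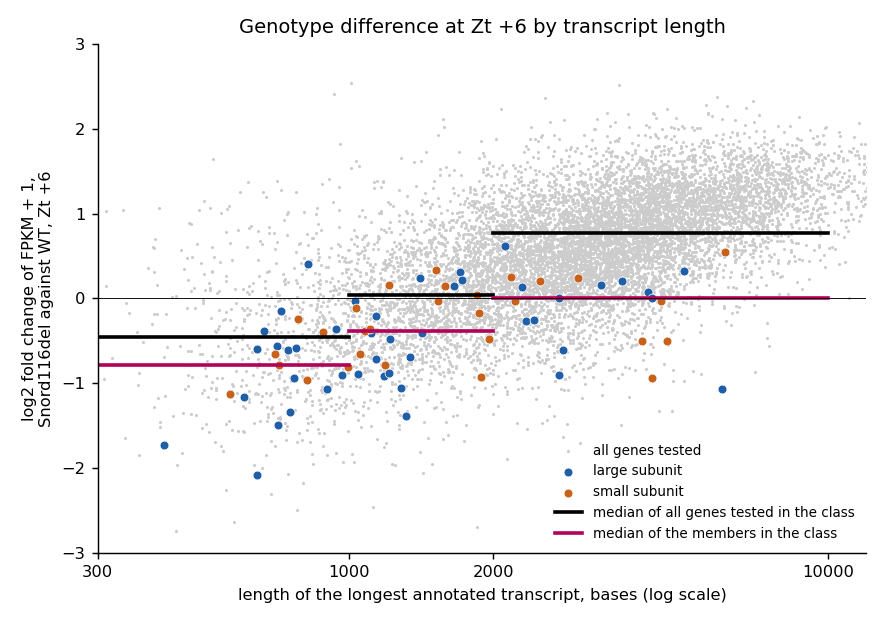
Log2 fold change of Snord116del against WT at Zt +6 (vertical axis) by length of the longest annotated transcript in bases (horizontal axis, log scale), with all genes compared in grey, members of each subunit in colour, and bars at the median of each length class. In all 3 classes the members' bar lies below that of all genes, and 123 genes fall outside the axes.

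At Zt +6 markers of most brain cell types were higher in Snord116del: 4 of 6 neuronal, 5 of 5 astrocyte, 3 of 4 oligodendrocyte, 3 of 4 microglial, 3 of 3 endothelial and 5 of 5 striatal markers were called higher and 0 lower, while 0 of 4 choroid plexus and 0 of 3 liver markers were called. Beside these, 49.3% of all genes compared were higher and 7.62% lower, so a rise was not particular to the markers. In every comparison the markers were called without the filter on the mean. Adora2a (striatum), Kl, Folr1 and Aqp1 (choroid plexus) and all 3 liver markers averaged under 1 FPKM, unlike the genes behind these shares. The summed level of the astrocyte markers was 76.4 FPKM in WT and 228 FPKM in Snord116del, and that of the neuronal markers 678 and 946 FPKM. Whether a different make-up of cells has a part in the members' lower levels was not tested, and in whole cortex fewer cells of a type and less RNA per cell cannot be told apart.

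The second comparison repeated the first in the dark, in other mice. At Zt +16, 33 of the 74 members were higher in Snord116del, where 19.0% of all genes compared were, and 0 were lower, where 0.204% were. The members' median log2 fold change was 0.55 beside 0.35 over all genes. Of the members 73 of 74 were above 0, the exception being Mrpl2 with -0.01, but so were 9965 of all 10297 genes compared. In the large subunit 18 of 45 and in the small subunit 15 of 29 were higher, with medians of 0.51 and 0.62. These calls depended on the scale of the groups: with the groups set to the same median, the same total or the same distribution, 0 members were called either way, their median was 0.12, -0.05 or 0.03, and 1.20%, 0.311% or 0.388% of all genes were higher and 0.515%, 0.952% or 0.505% lower.

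On the deposited scale Mrpl52 was the member with the highest log2 fold change at Zt +16, 1.00, from 197 FPKM in WT to 394 FPKM in Snord116del. Mrpl34 was at 34.5 and 65.1 FPKM (0.90), Mrpl54 at 63.0 and 115 FPKM (0.86) and Mrpl46 at 8.17 and 15.2 FPKM (0.82), followed by Mrpl16 (0.79). Of these, Mrpl52, Mrpl34, Mrpl54 and Mrpl16 had been called lower at Zt +6. In the small subunit Mrps15 (10.7 and 21.1 FPKM, 0.91), Mrps12 (5.09 and 10.2 FPKM, 0.88), Mrps34 (17.3 and 32.6 FPKM, 0.87), Mrps36 (28.5 and 52.3 FPKM, 0.85) and Mrps18a (14.3 and 26.4 FPKM, 0.84) had the highest values. Mrps18c and Mrps18b were called higher as well, with 0.65 and 0.63, and Mrpl12 with 0.75. The lowest values were those of Mrpl2 (-0.01), Mrpl44 (0.07), Mrpl50 (0.16), Mrpl3 (0.19) and Mrpl49 (0.21) in the large subunit and Mrps2 (0.18), Mrps5 (0.24), Mrps28 (0.24), Mrps22 (0.26) and Mrps10 (0.32) in the small subunit.

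Members at opposite sides of WT at the 2 times were common. Of the 74 members, 19 (25.7%) were lower at Zt +6 and higher at Zt +16 in Snord116del, beside 469 (4.55%) of all genes compared, and 0 were called the other way. The difference between the log2 fold changes at the 2 times had a median of -0.97 for the members and 0.22 for all genes, and it was below 0 for 68 of 74 members and for 39.7% of all genes. Markers of the other cell types are given for this time too: 1 of 6 neuronal, 1 of 5 astrocyte, 1 of 4 oligodendrocyte, 3 of 4 microglial, 0 of 3 endothelial, 3 of 5 striatal, 0 of 4 choroid plexus and 2 of 3 liver markers were higher at Zt +16 and 0 lower, with their part in the members' values not tested. Beside these, 19.0% of all genes compared were higher at Zt +16 and 0.204% lower. These shares are of genes averaging 1 FPKM or more, which the liver markers called, Alb and Apoa2, did not reach. No test of the difference between times was possible. Since no member was called at Zt +16 once the groups were put on 1 scale, the opposite calls hold on the deposited scale only.

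**Figure D3:**
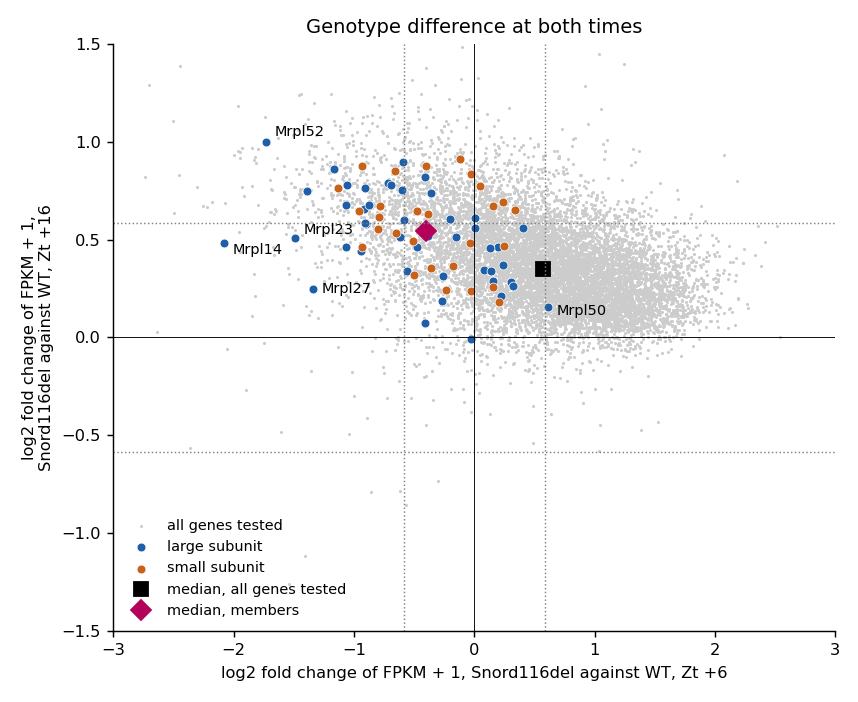
Log2 fold change of Snord116del against WT at Zt +6 (horizontal axis) and at Zt +16 (vertical axis), with all genes compared in grey, members of the large and small subunit in blue and orange, and dotted lines at a fold of 1.5. The median of the members lies at -0.41 and 0.55 and that of all genes at 0.57 and 0.35, and 42 genes fall outside the axes.

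Within WT, levels at Zt +16 were compared with those at Zt +6. Here 12 members were higher at Zt +16, where 5.71% of all genes compared were, and 0 were lower, where 10.3% were. The members' median was 0.41 beside -0.04 over all genes. Mrpl14 (0.99), Mrpl52 (0.91), Mrpl12 (0.79), Mrpl27 (0.72) and Mrpl54 (0.71) led the large subunit, all of them among the 6 members with the lowest values in Snord116del against WT at Zt +6. Both comparisons use the same WT mice at Zt +6, so these values are not independent. In the small subunit Mrps21 (0.79), Mrps26 (0.76), Mrps5 (0.76), Mrps16 (0.71) and Mrps33 (0.63) led. The lowest values were those of Mrps18a (-0.57), Mrps12 (-0.19), Mrps22 (-0.08), Mrps27 (-0.08) and Mrps30 (-0.08) and, in the large subunit, Mrpl2 (-0.23), Mrpl22 (-0.12), Mrpl42 (-0.11), Mrpl21 (0.03) and Mrpl19 (0.10). With the groups set to the same total, 0 members were higher and 1, Mrps18a, was lower, with a median of -0.01 beside -0.36 over all genes. On that scale 0.495% of all genes were higher and 28.0% lower. Of the markers, 4 of 5 astrocyte, 2 of 6 neuronal, 1 of 4 oligodendrocyte, 1 of 3 endothelial and 1 of 4 choroid plexus markers were lower at Zt +16 in WT, 1 of 4 oligodendrocyte markers was higher, and no microglial, striatal or liver marker was called. The summed level of the astrocyte markers was 76.4 FPKM at Zt +6 and 39.6 FPKM at Zt +16, that of the neuronal markers 678 and 550 FPKM, and that of the choroid plexus markers 202 and 25.5 FPKM, and their part in the members' values was not tested.

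Within Snord116del the difference between times was larger. At Zt +16, 57 members were higher than at Zt +6, where 25.0% of all genes compared were, and 0 were lower, where 39.1% were, with a median of 1.22 beside -0.24 over all genes. Mrpl52 rose from 30.8 to 394 FPKM, a log2 fold change of 3.64. Mrpl14 rose from 7.44 to 98.0 FPKM (3.55), Mrpl12 from 15.5 to 125 FPKM (2.93) and Mrpl54 from 16.4 to 115 FPKM (2.74), followed by Mrpl23 (2.48). These were all among the 6 members with the lowest values against WT at Zt +6, a comparison that shares the Snord116del mice of that time. Markers of astrocytes (4 of 5), oligodendrocytes (3 of 4), endothelium (3 of 3), neurons (3 of 6), striatum (3 of 5) and choroid plexus (1 of 4) were lower at Zt +16, whereas 1 oligodendrocyte, 1 striatal, 1 microglial and 2 liver markers were higher. The summed level of the oligodendrocyte markers was 635 FPKM at Zt +6 and 910 FPKM at Zt +16, and that of the astrocyte markers 228 and 59.0 FPKM. The part of these markers in the members' values was not tested. In the small subunit Mrps16 (2.60), Mrps34 (2.23), Mrps21 (2.20), Mrps18c (2.17) and Mrps26 (2.16) had the highest values, and Mrps36 (1.90), Mrps18b (1.23) and Mrps12 (1.09) were called higher as well, but Mrps18a (0.29) was not. The lowest values were those of Mrps25 (-0.26), Mrps22 (0.02), Mrps2 (0.11), Mrps18a (0.29) and Mrps23 (0.41) and of Mrpl2 (-0.21), Mrpl50 (-0.04), Mrpl19 (0.03), Mrpl10 (0.14) and Mrpl49 (0.18). With the groups set to the same total, 31 members were higher and 9 lower, with a median of 0.26 beside -1.08 over all genes. On that scale 8.26% of all genes were higher and 66.3% lower. All 4 comparisons rest on 4 values per gene, so each group enters 2 of them.

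The number in the name mostly separates members with a bacterial counterpart, up to 36 in the large and 21 in the small subunit, from the mitochondria-specific ones. At Zt +6, 15 of 26 large subunit genes with numbers to 36 and 5 of 19 with higher numbers were lower in Snord116del, with medians of -0.65 and -0.38. In the small subunit 5 of 16 and 4 of 13 were lower, with medians of -0.39 and -0.24. The share lower among all genes compared was 7.62%. At Zt +16 the medians were 0.51 and 0.56 in the large and 0.64 and 0.50 in the small subunit. These values describe the genes, and the difference between the classes was not tested.

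Genes with related functions did not all move with the members. Of 7 further mitoribosomal proteins that carry other names, 4 were lower and 2 higher in Snord116del at Zt +6, where 7.62% of all genes were lower and 49.3% higher. Chchd1 (40.0 FPKM in WT and 12.8 FPKM in Snord116del, log2 fold change -1.57), Ict1 (-1.43) and Aurkaip1 (-1.09) were lower, as was Gadd45gip1 (-0.69), whereas Ptcd3 (0.80) and Mrp63 (0.73) were higher and Dap3 (-0.03) was not called. At Zt +16 Chchd1, Ict1, Aurkaip1 and Gadd45gip1 were each called higher, between 0.71 and 0.86, where 19.0% of all genes were higher. These 4 genes thus had the same pair of calls as 19 of the members.

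Most products of the respiratory chain and ATP synthase genes encoded in the nucleus assemble with proteins that the mitochondrial ribosome makes. Of these genes 47 of 78 were lower and 4 higher at Zt +6, with a median of -0.78. At Zt +16, 61 were higher and 0 lower, with a median of 0.71. Of all genes compared, 7.62% were lower and 49.3% higher at Zt +6, and 0.204% were lower and 19.0% higher at Zt +16. The calls of these lists at Zt +16 were made on the deposited scale only. Ndufb2 (300 and 52.2 FPKM, -2.50), Ndufc1 (-1.96) and Ndufb4 (-1.93), subunits of complex I, had the largest changes at Zt +6, and Atp5k (1.24), Atp5g1 (1.20) and Atp5e (1.18), of the ATP synthase, at Zt +16. The cytosolic ribosomal protein genes had 30 of 77 lower and 4 higher at Zt +6, with a median of -0.41 like that of the members, and 51 higher and 1 lower at Zt +16, with a median of 0.75. Rpl36 (-1.51), Rpl34 (-1.41) and Rps21 (-1.37) changed most at Zt +6. Both lists have short transcripts, with median lengths of 929.5 and 944.5 bases.

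Genes that serve the mitochondrial ribosome without being part of it were mostly higher or not called at Zt +6, where 49.3% of all genes were higher and 7.62% lower, with a median of 0.57. These lists were not matched to the members by level or transcript length. Many of their genes were at the levels of the 24 lowest members (means of 1.28 to 6.37 FPKM). Of those members 0 were lower and 1 was higher, with a median of 0.15. Of 12 mitochondrial translation factors 6 were higher and 1 lower, with a median of 0.62: Lrpprc, which stabilises mitochondrial mRNAs, was at 2.50 and 7.05 FPKM (1.20), the elongation factor Guf1 at 1.19 and the elongation factor Gfm1 at 1.06, while Tsfm was lower (-0.66). Of 15 mitochondrial tRNA synthetases 3 were higher and 1 lower, with a median of 0.27. Lars2 was at 19.3 and 45.4 FPKM (1.20), Iars2 at 0.95 and Fars2 at -0.88. Of 15 assembly factors 4 were higher and 0 lower, with a median of 0.30, led by Mterfd1 (1.61), Tfb2m (1.02) and Noa1 (0.91). Of 10 genes of mitochondrial transcription and its regulators 5 were higher and 1 lower, with a median of 0.70. Ppargc1a, a coactivator that drives mitochondrial biogenesis, was at 1.72 and 6.26 FPKM (1.42) and Gabpa, an ETS factor known for binding promoters of mitochondrial genes, at 0.651 and 2.95 FPKM (1.26), whereas the nuclear receptor Esrra was at 19.8 and 6.53 FPKM (-1.46). At Zt +16 the medians of these lists were 0.22, 0.38, 0.35 and 0.31, with 1 of 12, 2 of 15, 2 of 15 and 2 of 10 genes higher and 0 lower. Over all genes compared 19.0% were higher and 0.204% lower at this time, with a median of 0.35. The largest changes then were those of Oxa1l (0.66), Lrpprc (0.50) and Tufm (0.47), of Tars2 (0.69), Vars2 (0.60) and Fars2 (0.54), of Mpv17l2 (0.92), Grsf1 (0.67) and Mterfd2 (0.55), and of Polrmt (0.67), Esrra (0.65) and Pprc1 (0.56).

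**Figure D4:**
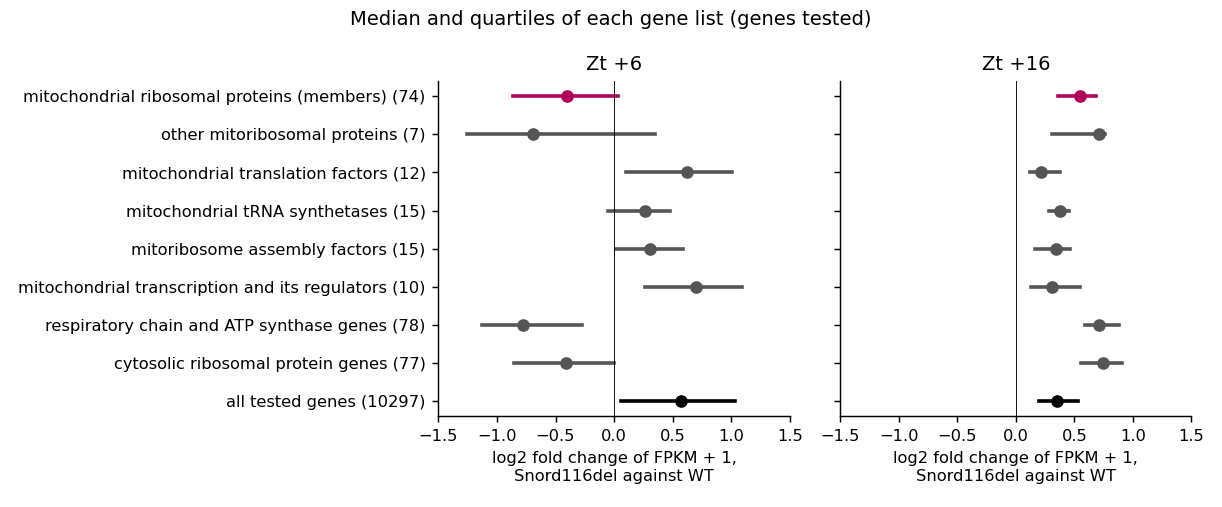
Median (point) and quartiles (ends of the bar) of the log2 fold change of Snord116del against WT in each gene list at Zt +6 (left) and Zt +16 (right), with the number of genes compared in brackets. At Zt +6 the members, the respiratory chain genes and the cytosolic ribosomal protein genes have medians of -0.41, -0.78 and -0.41, the 7 other mitoribosomal proteins have a median of -0.69, and the translation factors, tRNA synthetases, assembly factors and transcription genes have medians between 0.27 and 0.70, beside 0.57 for all genes.

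In the genome the members were spread over 17 chromosomes, with 10 on chromosome 11 and 8 on chromosome 17. Of the 76, 16 (21.1%) had the start of another protein-coding gene on the opposite strand within 1 kb upstream, beside 10.8% of all genes compared that have an annotation, and 32 (42.1%) overlapped another annotated gene, 28 of them a gene on the other strand, beside 42.1% of all genes overlapping any gene. Where both genes of a divergent pair could be compared (8 pairs), 4 members and 2 partners were lower at Zt +6 and 2 partners were higher. The shares over all genes were 7.62% lower and 49.3% higher. Mrps34 and Eme2, whose starts lie 29 bases apart, were both lower (-0.93 and -0.86), as were Mrpl32 and the proteasome gene Psma2 (-0.94 and -0.80), 217 bases apart. Mrpl40 (-0.92) and Hira, a histone chaperone gene 270 bases away (1.21), were called in opposite directions. Mrps12 and Sars2, which encodes the mitochondrial seryl-tRNA synthetase and starts 171 bases away, had -0.40 and -0.57 and were not called.

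Promoters of nuclear genes for mitochondrial proteins are known for sites of NRF1 and of ETS factors such as GABPA. The 250 bases before the start were taken from RefSeq promoters (GRCm38.p6), which matched 67 of the 76 members, and searched on both strands. The NRF1 letters GCATGCGC stood in 8 members (11.9%), beside 2.26% of all 32851 promoters and 5.12% of the genes compared, and the ETS letters CCGGAAG in 17 (25.4%), beside 6.91% and 15.4%. The Sp1 letters GGGCGGG stood in 28 (41.8%, beside 23.4% and 50.0%), the E-box CACGTG bound by the clock factors in 5 (7.46%, beside 6.02% and 10.6%), the YY1 letters AAGATGGC in 4 (5.97%, beside 1.56% and 2.32%) and the CRE TGACGTCA in 2 (2.99%, beside 1.55% and 3.35%). No motif stood in 20 members. Members with and without the ETS letters had medians of -0.52 and -0.39 at Zt +6, and those with and without the NRF1 letters -0.15 and -0.41. With and without the YY1 letters the medians were -0.80 and -0.38, and with and without the E-box -0.61 and -0.39. For the Sp1 letters they were -0.41 and -0.27, and for the CRE -0.25 and -0.40. A match is a description of the letters and not of a bound site. The stretches directly before the start are shown for Mrpl52 and Mrpl12, which were among the members with the largest changes, for Mrpl50, the exception at Zt +6, and for 4 members that illustrate the other motifs, with the searched letters in capitals on either strand.
Mrpl52, chr14:54426759-54426908, plus strand, ETS letters: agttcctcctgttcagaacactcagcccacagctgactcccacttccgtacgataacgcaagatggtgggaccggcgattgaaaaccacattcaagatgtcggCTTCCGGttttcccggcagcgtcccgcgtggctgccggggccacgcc
Mrpl12, chr11:120484487-120484636, plus strand, none of the letters: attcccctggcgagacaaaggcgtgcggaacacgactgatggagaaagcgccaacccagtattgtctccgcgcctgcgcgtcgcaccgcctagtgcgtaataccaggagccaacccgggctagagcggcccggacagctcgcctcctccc
Mrpl50, chr4:49521084-49521173, minus strand, none of the letters: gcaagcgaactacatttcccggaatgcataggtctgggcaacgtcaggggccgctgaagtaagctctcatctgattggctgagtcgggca
Mrpl32, chr13:14613038-14613187, minus strand, NRF1 letters at 3 places: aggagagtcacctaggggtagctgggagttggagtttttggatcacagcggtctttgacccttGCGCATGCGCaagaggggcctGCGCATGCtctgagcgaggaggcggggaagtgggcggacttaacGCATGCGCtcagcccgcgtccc
Mrpl9, chr3:94443186-94443335, plus strand, NRF1 letters on both strands: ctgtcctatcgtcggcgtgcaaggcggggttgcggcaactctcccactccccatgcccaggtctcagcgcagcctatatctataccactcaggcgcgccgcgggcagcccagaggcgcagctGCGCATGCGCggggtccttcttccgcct
Mrpl36, chr13:73330859-73331008, plus strand, E-box and YY1 letters: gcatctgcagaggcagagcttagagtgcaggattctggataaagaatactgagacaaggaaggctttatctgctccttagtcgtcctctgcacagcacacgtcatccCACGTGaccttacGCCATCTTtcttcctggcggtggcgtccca
Mrpl16, chr19:11770265-11770414, plus strand, CRE: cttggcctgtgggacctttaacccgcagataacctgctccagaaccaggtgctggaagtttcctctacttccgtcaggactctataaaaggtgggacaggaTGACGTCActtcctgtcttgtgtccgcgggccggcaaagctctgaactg

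The promoters shown are examples, and whether any motif goes with the change at Zt +6 was not tested. Mrpl52 with the ETS letters and Mrpl12 with none were both lower (-1.73 and -1.39), whereas Mrpl50, also with none, was higher (0.62). Mrpl32 with the NRF1 letters was lower (-0.94) and Mrpl9 with the same letters was not called (0.14). Mrpl36 and Mrpl16 were both lower (-1.07 and -0.72).

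The last question was whether 116HG ChIRP peaks lay at these genes. A peak of WT 116HG replicate 1 was counted as replicated when a peak of replicate 2 lay within 10 kb, which left 8105 peaks, and it was given to a gene when inside it or within 2 kb. Of the 76 members 10 (13.2%) had a replicated peak, beside 18.0% of the 10165 annotated genes compared: Mrpl15, Mrpl32, Mrpl40, Mrpl46, Mrps2, Mrps5, Mrps7, Mrps11, Mrps24 and Mrps34. The share of the members was thus not above that of other genes. Of peaks of 1 library alone, 72 members had a peak of replicate 1, beside 93.6% of genes, and 5 had a peak of replicate 2 (Mrpl15, Mrpl32, Mrpl33, Mrpl46 and Mrps28), beside 17.5%. In the controls 0 members had a WT NSC peak, beside 2.53%, 1 (Mrps15) had a Snord116del 116HG peak, beside 2.86%, and 3 (Mrpl54, Mrps16 and Mrps26) had a Snord116del NSC peak, beside 10.6%.

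The peaks of Mrpl46 and Mrps11 are partly the same. These genes lie head to head on chromosome 7 and overlap at their starts, and 2 replicated peaks there, chr7:85928043-85928189 and chr7:85928211-85928325 in mm9, lie inside both. The second had a fold over input of 154 in the authors' list, the highest of the replicated peaks at members. At Zt +6 Mrps11 was lower in Snord116del (10.4 FPKM in WT and 6.29 FPKM in Snord116del, log2 fold change -0.65) and Mrpl46 was not called (-0.41). Of the 10 members with a replicated peak, Mrpl32 (-0.94), Mrps34 (-0.93), Mrpl40 (-0.92), Mrps24 (-0.80) and Mrps11 were called lower at Zt +6, and Mrps7 (-0.48), Mrpl46, Mrps5 (-0.03), Mrpl15 (0.08) and Mrps2 (0.21) were not called. Among all 74 members compared 29 (39.2%) were lower, beside 7.62% of all genes. Whether a peak goes with a lower level was not tested.

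Mrpl15 was the only member at which peaks of the replicates overlapped directly. It carried 6 peaks of replicate 1 counted as replicated but 1 peak of replicate 2, which 1 of the 6 overlapped. Mrpl15 was at 2.43, 2.63, 3.68 and 4.94 FPKM, WT before Snord116del and Zt +6 before Zt +16.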

How the data were processed

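RNA-seq of cortex from 9 mice in 4 groups and ChIRP-seq peak lists of 5 libraries from brain were used. Per the labels and the methods of the study, the authors prepared the RNA-seq libraries with a NuGEN Encore Complete kit, aligned reads to mm9 with TopHat2 2.0.5 and computed FPKM with Cuffdiff 2.0.2. The deposited table holds 1 FPKM per gene and group, together with the authors' own fold changes and q-values, which were not used. The labels of 1 WT and both Snord116del mice at Zt +6 name an earlier version of this table. The authors called ChIRP peaks in each library with MACS 1.4.2 after alignment with Bowtie2 2.0.0, and they deposited each peak's ratio (fold) over input; WT 116HG replicate 2 has positions only. Depth per group is not given in the table, and without values per mouse no error, interval or test can be given.

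The 10297 genes averaging 1 FPKM or more were compared as log2 of FPKM + 1, which understates changes of low genes, with a fold of 1.5 and at least 1 FPKM in the higher group. Cell type markers were called by the same rule without the filter on the mean. Genes were matched by symbol to GENCODE vM1 on NCBIM37, the assembly of mm9, and transcript length is that of the longest transcript. For each comparison the 5 highest and 5 lowest members of each subunit are named, for levels the 5 highest and lowest, and always Mrps18a, Mrps18b, Mrps18c, Mrpl12, Mrps12, Mrps36 and members with a replicated peak. Of each related list the 3 genes of largest change are named, and genes that only share a prefix were dropped. The members and lists were chosen with earlier results of these data known, and the classes by level, by number in the name and by divergent pair after seeing values. The fold rule and the trend removal were tested on simulated data. The protein sequences of the Mrps18 genes were not analysed here. Python 3.11.15, numpy 2.4.6, pandas 2.3.3 and statsmodels 0.14.6 were used.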

Additional observations from a re-analysis of the deposited data

Results flagged for a closer look

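Members called lower in Snord116del at Zt +6 and higher at Zt +16 are given here with the difference of their log2 fold changes (Zt +6 minus Zt +16), which was not tested because each group has 1 value. In the large subunit the difference was -2.73 for Mrpl52, -2.14 for Mrpl12 and -2.03 for Mrpl54. It was -1.84 for Mrpl4, -1.75 for Mrpl36, -1.67 for Mrpl33, -1.58 for Mrpl40 and -1.55 for Mrpl43. Mrpl16 (-1.51), Mrpl30 (-1.49), Mrpl34 (-1.49), Mrpl24 (-1.47) and Mrpl37 (-1.36) followed. In the small subunit the difference was -1.89 for Mrps16, -1.81 for Mrps34 and -1.61 for Mrps18c, and -1.51 for Mrps36, -1.46 for Mrps6 and -1.41 for Mrps21. Mrpl14 and Mrpl23, which had values of -2.08 and -1.49 at Zt +6, are not among them, since their log2 fold changes at Zt +16 (0.48 and 0.51) did not reach the fold of 1.5. None of the 19 was called at Zt +16 with the groups set to the same median, total or distribution.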

How the results depend on the processing

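No paired analysis was possible because the table has 1 value per group, and for the same reason no mouse could be left out in turn. For Snord116del against WT at Zt +6, the members higher, lower and their median (1, 29 and -0.41) became 0, 54 and -1.09 with the same median in every group and 0, 54 and -1.08 with quantile normalization; 10 were lower and 0 higher at a fold of 2, 0 were higher with a median of -0.61 among genes of at least 5 FPKM, 2 were higher with a pseudocount of 0.1, 3 were higher with no filter on the mean, and 0 were higher with trends on length and mean FPKM removed. At Zt +16 (33, 0 and 0.55) no member was higher (0) with the same median, the same total, quantile normalization, the length trend removed or both trends removed, with medians of 0.12, -0.051, 0.030, 0.056 and 0.031, and 0 were higher at a fold of 2. In WT between times (12, 0 and 0.41) the values were 26 higher and a median of 0.53 with the same median; 0, 1 and -0.0071 with the same total; 2, 1 and 0.28 with quantile normalization; 5, 1 and 0.21 without the length trend; 3, 1 and 0.23 without both trends; 1 lower with a pseudocount of 0.1 and 0 higher at a fold of 2. In Snord116del between times (57, 0 and 1.22) they were a median of 1.36 with a pseudocount of 0.1, 1 lower with no filter, a median of 1.71 from 5 FPKM, a median of 1.62 with the same median, 31, 9 and 0.26 with the same total, 5 lower and a median of 0.77 without the length trend and 36, 2 and 0.57 without both trends. Of the named genes called, Mrpl50 at Zt +6 turned to -0.025 with the same median and -0.068 with quantile normalization, Mrps18c at Zt +16 to -0.00065 with the same total and -0.030 without both trends, and Mrps12 in Snord116del between times to -0.16 without the length trend. Leaving out Mrps36 changed none of the counts by over 1.5 times. The members with a replicated peak (10) became 1 with direct overlap, 3 with 2 kb between replicates and 5 in the upper quartile of the fold, and ranged from 5 with replicate 2 alone to 72 with replicate 1 alone. The cause of these changes was not tested. Depth and spread between mice cannot be seen in group values, so no difference given here has a replicate check.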
